A study of Mus musculus with 36 samples.

Results

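The intermediate windows described here are stretches of the mouse genome in which liver DNA carried methylation on roughly as many CpG cytosines as not, whatever the strain or cross. The autosomes were cut into fixed windows of 500 bp, and the level of a window in an animal was the percentage of its counts that were methylated. A window became a member if it held 10 or more CpGs, had at least 50 sequencing counts in each of the 24 animals, and had a mean methylation between 35 and 65% in each of B6, C3, B6C3F1 and C3B6F1. Of 302148 windows with enough CpGs and counts, 17074 (5.65%) met these limits, and they formed 15830 loci when members no more than 500 bp apart were joined. Of these loci, 14750 held a single window, 972 held 2, and the longest held 12. Another 5847 windows lay between 35 and 65% over all animals but left the limits in at least 1 strain or cross.

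Whole-genome bisulfite sequencing of whole liver was used to measure methylation, as counts of methylated and unmethylated reads at each CpG. B6 is the inbred strain C57BL/6N and C3 the inbred strain C3H/HeN, and both were wild type. B6C3F1 animals had a B6 dam and a C3 sire, and C3B6F1 animals had a C3 dam and a B6 sire, from 3 families per cross. Each strain or cross was represented by 3 males and 3 females, so that the parents of the F1 animals were themselves the B6 and C3 animals. The parental females, here dams, had carried and nursed pups, whereas the F1 daughters were virgins. All animals were killed at the same age and had passed through the same change of diet. Whole liver holds hepatocytes beside endothelial, immune and other cells, and its level is an average over all of them. Counts per CpG ranged from 19.4 to 32.8 over the animals.

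A level near the middle can arise in several ways. In genomic imprinting the copy inherited from 1 parent carries methylation and the other does not, a state set in the egg or sperm and kept in every tissue of the body, so that all CpGs of an imprinted control region show the same level. A methylation boundary gives a middle average when a methylated stretch meets an unmethylated one inside a window. A mixture of cells, or methylation placed at random from molecule to molecule, also gives a middle average. The deposited counts do not separate the parental copies of a window, so allele-specific methylation itself was not measured.

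Reference sequences of a few members are printed first, because they show what the counts were measured on. All are from the plus strand of mm9, 5′ to 3′. In the first 4 the capitals mark CpGs, and the levels given are pooled over the 24 animals. The member at the start of Snrpn, which encodes a splicing protein and whose maternal copy is methylated, was the imprinted member whose CpGs differed least. The stretch chr7:67150046-67150285 begins beyond the annotated untranslated exon and holds 6 of the 11 CpGs of its window.
Snrpn: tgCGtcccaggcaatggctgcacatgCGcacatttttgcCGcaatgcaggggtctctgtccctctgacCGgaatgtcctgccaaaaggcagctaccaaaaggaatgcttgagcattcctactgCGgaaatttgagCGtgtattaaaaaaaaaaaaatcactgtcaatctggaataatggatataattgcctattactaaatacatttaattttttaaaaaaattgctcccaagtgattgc
The stretch chr11:85337741-85337980 lies in an intron of Bcas3 and is shown as the member outside the imprinted lists whose CpGs differed least.
Bcas3: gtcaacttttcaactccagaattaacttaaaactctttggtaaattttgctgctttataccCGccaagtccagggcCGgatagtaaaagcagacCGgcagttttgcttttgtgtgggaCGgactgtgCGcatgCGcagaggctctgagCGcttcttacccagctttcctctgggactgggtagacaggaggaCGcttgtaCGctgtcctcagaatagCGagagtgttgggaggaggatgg
The stretch chr16:33821065-33821304 is intergenic, 8251 bp from the nearest protein-coding start, that of the integrin gene Itgb5, and is shown as the member with the sharpest split between its CpGs.
Itgb5: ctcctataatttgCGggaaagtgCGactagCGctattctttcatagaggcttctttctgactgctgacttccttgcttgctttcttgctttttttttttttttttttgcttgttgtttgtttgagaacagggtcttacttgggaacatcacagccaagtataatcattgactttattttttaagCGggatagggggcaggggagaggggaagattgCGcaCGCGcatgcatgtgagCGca
The stretch chr7:142235607-142235846 lies in an intron of Dock1, which encodes an activator of the small GTPase Rac, and is shown as the member with the largest difference between dams and sires.
Dock1: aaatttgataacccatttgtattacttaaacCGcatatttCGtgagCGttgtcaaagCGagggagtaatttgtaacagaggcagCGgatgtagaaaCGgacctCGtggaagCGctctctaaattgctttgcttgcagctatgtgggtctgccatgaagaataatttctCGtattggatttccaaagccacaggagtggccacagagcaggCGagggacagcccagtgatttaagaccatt

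The 11 CpGs of the Snrpn window had levels of 48.1 to 51.4%. The 10 CpGs of the Bcas3 window lay between 55.6 and 60.6%. In the Itgb5 window, of which 8 of 12 CpGs are shown, the first 5 CpGs had 0 to 0.832%, the sixth had 15.8%, and the last 6 had 95.6 to 98.6%. The mean of that window was 44.0% in B6 mice, 48.6% in C3 mice, 45.1% in B6C3F1 and 50.2% in C3B6F1, close to that of the Snrpn locus, although almost no CpG in it had a middle level. The 11 CpGs of the Dock1 window ranged from 42.8 to 83.1%, and each was an average of a higher level in females and a lower level in males.

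**Figure D1:**
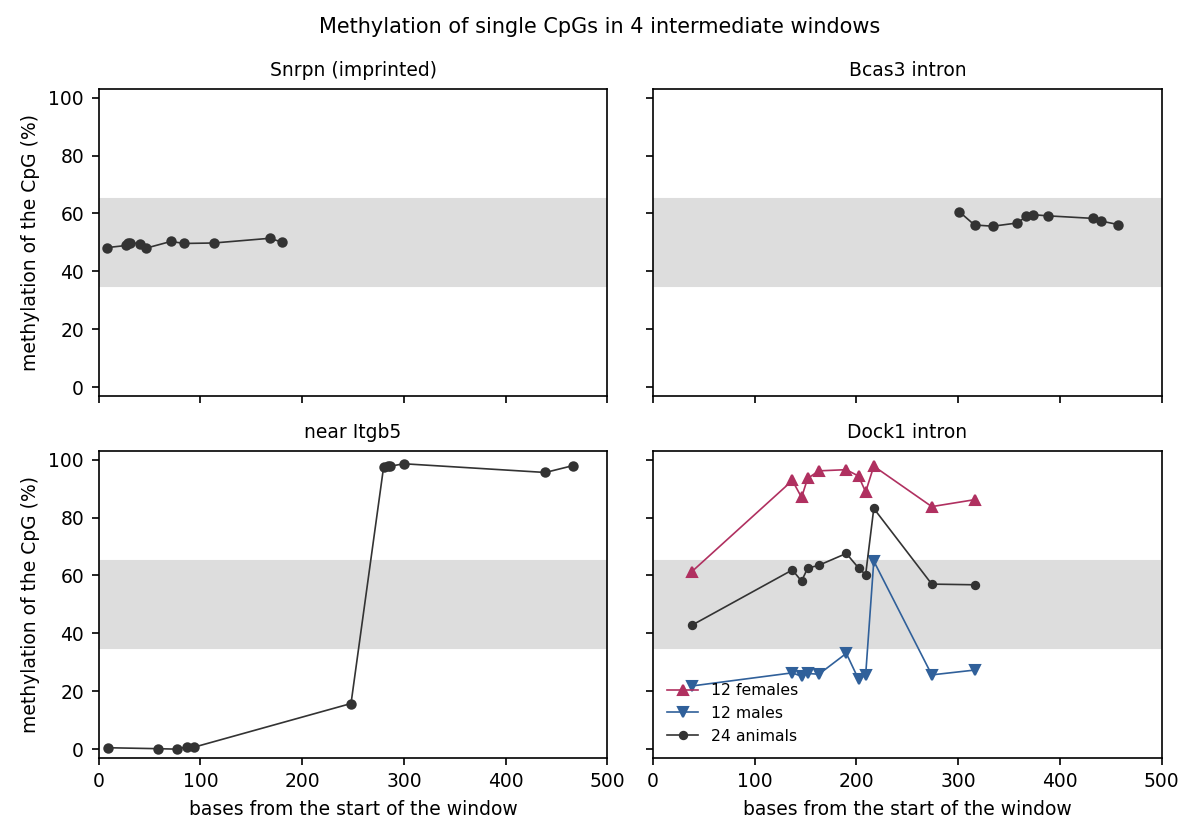
Methylation of each CpG (%, pooled counts) against its distance in bases from the start of its window, for members at Snrpn, in Bcas3, near Itgb5 and in Dock1. The grey band marks 35 to 65%. Snrpn and Bcas3 are level, Itgb5 steps from near 0 to near 98, and the black Dock1 points lie between the 12 females (red) and the 12 males (blue).

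Further sequence carries letters that are known to be read at imprinted regions. The zinc finger protein ZFP57 binds methylated TGCCGC and protects imprinted methylation in the embryo. The stretch below, chr15:72640255-72640494 at Trappc9, held 3 copies of TGCCGC or its complement GCGGCA (capitals). It was picked for that number of copies in 240 bases outside untranslated exons.
Trappc9: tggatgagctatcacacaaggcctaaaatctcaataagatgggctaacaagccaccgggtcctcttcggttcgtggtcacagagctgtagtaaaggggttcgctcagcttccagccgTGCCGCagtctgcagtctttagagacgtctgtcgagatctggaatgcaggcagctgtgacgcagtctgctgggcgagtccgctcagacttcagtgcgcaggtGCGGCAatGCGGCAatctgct
The stretch lies in an intron of Trappc9, where the imprinted noncoding RNA Peg13 is made, and its window lay at 45.8% in B6 mice, 46.1% in C3 mice, 54.2% in B6C3F1 and 41.1% in C3B6F1. Upstream of H19, CTCF binds the unmethylated maternal copy at repeated sites that share a core of 14 bases, searched on both strands with its sixth and ninth letters free. That core was in 3 members there, shown with the core in capitals.
H19 site chr7:149766194-149766247: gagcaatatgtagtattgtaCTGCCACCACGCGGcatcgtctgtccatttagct
H19 site chr7:149766649-149766702: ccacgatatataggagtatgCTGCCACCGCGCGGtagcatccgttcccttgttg
H19 site chr7:149767919-149767972: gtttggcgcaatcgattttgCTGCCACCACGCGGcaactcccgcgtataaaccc
The CpGs in these stretches lay at 47.2 to 48.1%, 45.5 to 47.4% and 48.4 to 53.2% in that order. The CTCF core was in 5 members, 3 of them at H19, and in 50 of all windows tested (0.0165%). TGCCGC on either strand was in 49 of the 143 members at genes with an imprinted region (34.3%) and in 12.7% of all members, beside 15.4% of all windows tested. These letters hold a CpG, and the 143 held a median of 19 CpGs, against 12 in all members and in all windows. The part of CpG density in the shares was not tested. A match describes letters in a window and no more.

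CpGs within a member were seldom alike. A member was called uniform if at least 80% of its CpGs lay between 25 and 75%, split if at least 25% of CpGs lay below 20% and at least 25% above 80%, and graded otherwise. Of the members, 4012 (23.5%) were uniform, 11462 (67.1%) graded and 1597 (9.35%) split. Over all windows tested 1.95% were uniform and 0.663% split, but both shapes call for a middle mean, on which the members were chosen. Had the CpGs been required to lie between 30 and 70%, 1657 members (9.70%) would have been uniform, whereas among the 168 members near genes of the imprinted lists described further on the number would have gone from 128 to 119. The remaining 3 had fewer than 5 CpGs with at least 100 pooled counts. The SD of the levels over the CpGs of a window had a median of 24.1 points in members. Counting error alone would give a median of 1.71 points at the median of 654 pooled counts per CpG. Neighbouring CpGs differed by a median of 12.4 points.

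Many split members held a single step. Among them, 894 of 1597 (56.0%) crossed the 50% level exactly 1 time from the first to the last CpG, as Itgb5 did, against 23.3% of all members. The 1 kb on either side was also read, where it held at least 5 CpGs. The flanks lay below 35% on 1 side and above 65% on the other for 33.2% of split members and 22.4% of all members, beside 8.91% of all windows tested. Both flanks were above 65% for 37.5% of members and 63.4% of all windows tested. Both flanks were themselves between 35 and 65% for 4.83% of members, and for 74 of the 137 members at genes with an imprinted region whose flanks could be read (54.0%).

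Genes known to be imprinted were taken from lists: 36 annotated genes linked to a region that differs in methylation between the parental copies, and 44 other imprinted genes. Within 10 kb of the first list lay 143 members, within 10 kb of the second list only lay 25, and 16906 members were near neither. Of the 143, 118 (82.5%) were uniform, none was split, and the median SD over CpGs was 4.61 points, compared with 24.2 points for members near neither list. Counted by spread, 36 of the 39 members with an SD below 2.5 points and 38 of the 49 with an SD from 2.5 to 5 points were at these genes. From 5 to 10 points they were 29 of 180, and from 15 to 20 points 3 of 3400. In 76 members the SD over CpGs was no more than 2 times that of counting error, and 69 of the 76 were at the first list. The 25 members at other imprinted genes had a median of 21.5 points, and 10 of them were uniform.

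**Figure D2:**
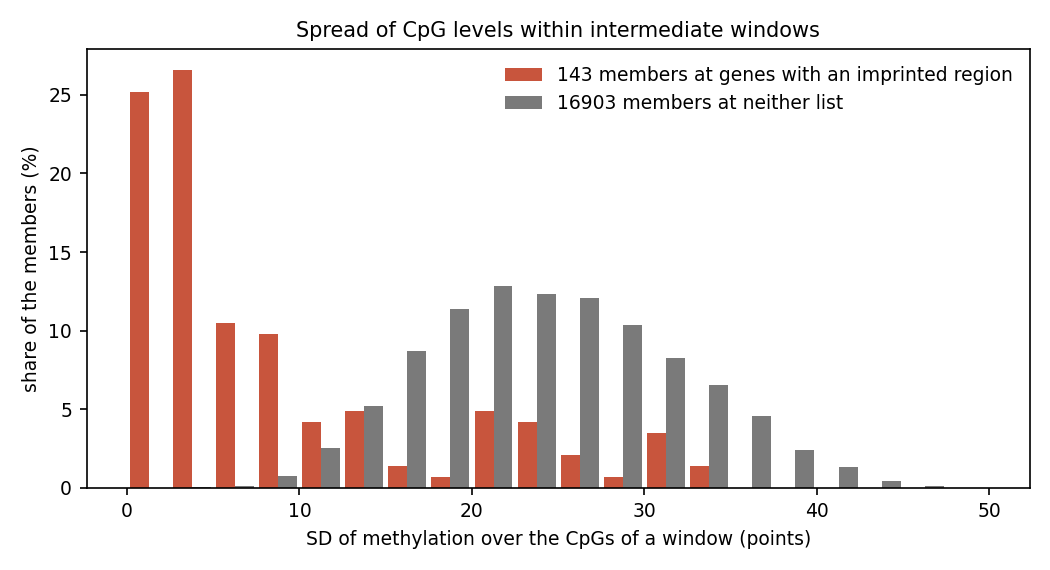
Share of members (%) by the SD of methylation over the CpGs of the window (points, bins of 2.5), for the 143 members at genes with an imprinted region (red) and the 16903 members near neither list with such an SD (grey). The red bars are highest below 5 points, and the grey bars peak between 20 and 25.

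Of the 36 genes of the first list, 30 had a member within 10 kb. Rasgrf1, Usp29, Zim1, Inpp5f, Nap1l5 and Herc3 had none, with 2 to 22 windows tested each. Within 2 kb of the list, 129 of 534 windows tested were members (24.2%), beside 5.65% of all windows. The second list had 18 of 428 (4.21%) within 2 kb, and its genes with a member within 10 kb were Ndn, Mkrn3, Peg12, Cdkn1c, Phlda2, Slc22a18, Nap1l4, Slc22a2, Slc22a3, Copg2, Ppp1r9a, Asb4, Rtl1, Mirg, Ano1, Sfmbt2, Htr2a, Ampd3, Mas1, Phactr2, Bcl2l1 and Adam23.

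Loci of at least 2 members numbered 31 at the first list and held 123 windows. In the 19 of them with 3 or more windows, group means lay between 44.7 and 56.3%, the SD between the 6 animals of a strain or cross had a median of 3.21 points, and all 456 values of single animals lay between 35.7 and 61.2%. Among the 12 loci of 2 windows, 12 of 288 values lay outside 35 to 65%. Each window was chosen for group means between 35 and 65%, so middle group means follow from the rule. Windows of the same regions outside these limits are not part of the loci.

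The longest locus was at the Gnas cluster, which encodes a G protein subunit and related transcripts and holds regions of either parental methylation. Over its 12 windows and 334 CpGs, at chr2:174120501-174126500 and spanning exons, the 6 B6 animals had 47.7, 49.4 and 51.3% as lowest, median and highest. The C3 animals had 47.0, 52.1 and 52.9%, B6C3F1 47.5, 49.5 and 50.95%, and C3B6F1 48.4, 50.7 and 53.9%. The ranges of all strains and crosses overlapped. Another locus of 10 windows at chr2:174108501-174113500 had means of 49.5, 49.0, 49.9 and 49.1% in B6, C3, B6C3F1 and C3B6F1. At the start of a Gnas transcript, 4 windows at chr2:174152501-174154500 had means of 47.2, 50.9, 49.7 and 46.2%.

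Other regions whose maternal copy is methylated were at similar levels. Mest, which encodes a hydrolase-like protein, held 9 windows at chr6:30685001-30689500 with means of 49.7, 51.9, 49.0 and 52.6% and single animals from 46.4 to 55.5%. The retrotransposon-derived gene Peg10 and its neighbour Sgce shared 7 windows at chr6:4696001-4699500, with means of 51.03, 50.9, 50.4 and 49.8% and a median SD over CpGs of 2.01 points. Peg3, which encodes a zinc finger protein, had 7 windows at chr7:6680001-6684000 and animals from 43.6 to 52.46%. The Kcnq1 locus, at chr7:150481001-150482500 in an intron, covers the region from which the antisense transcript Kcnq1ot1 starts, and its animals lay between 40.6 and 53.4%. Plagl1, Grb10, Zrsr1 with Commd1, Impact, Trappc9, Slc38a4 and Airn with Igf2r each had a locus of 3 to 5 windows within the ranges above.

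Among the other genes linked to regions whose paternal copy is methylated, H19, Meg3 and Zdbf2 had loci of 3 or more windows. The Gnas cluster, which holds regions of either kind, is given above. The 3 windows with the CTCF cores upstream of H19, a noncoding RNA next to Igf2, had a lowest, median and highest animal of 47.9, 48.8 and 51.6% in B6, 45.0, 48.6 and 53.3% in C3, 43.7, 48.5 and 52.8% in B6C3F1 and 44.9, 49.5 and 53.5% in C3B6F1. These ranges overlapped throughout. The 3 windows over H19 itself had wider ranges, from 44.6 to 61.2% over all animals. Meg3, a noncoding RNA, held 5 windows at chr12:110778501-110781500 with means of 51.6, 49.9, 48.2 and 53.2%, and at Rian in the same cluster 2 windows had 55.01, 50.96, 52.3 and 53.1%. At Dlk1, by contrast, the 4 windows in 2 loci were graded, with median SDs over CpGs of 25.5 and 22.7 points. Of the 31 loci, 4 held no uniform window. They were these 2, a locus at the start of Trim50 that lies within 10 kb of Fkbp6, and the outer locus of Slc38a4 at chr15:96890001-96891000.

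Among loci of 2 windows, the start of Igf2r at chr17:12962001-12963000 had means of 41.0, 37.7, 42.7 and 43.3% over 109 CpGs. Cdh15, which encodes a cadherin of muscle, had 61.0, 52.0, 63.1 and 59.8% at chr8:125388501-125389500, where 4 strain variants lie. Nnat with Blcap had 54.6, 54.4, 54.7 and 49.5% at chr2:157386501-157387500. The outer Slc38a4 locus was at 52.47, 63.3, 57.9 and 56.5%, and the Zdbf2 locus at chr1:63355501-63357000 at 59.7, 59.4, 57.7 and 59.5%.

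**Figure D3:**
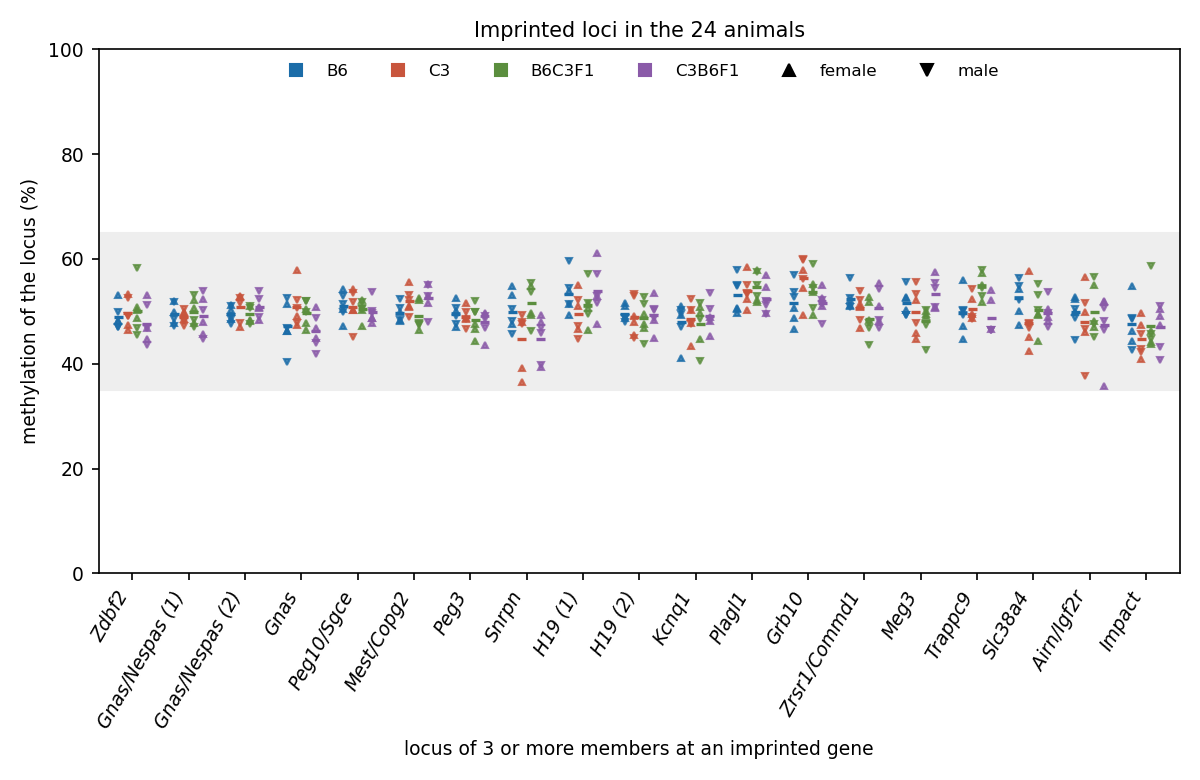
Methylation (%) of the 19 loci with 3 or more members at genes with an imprinted region, 1 point per animal, coloured by strain or cross, upward triangles for females and downward for males, bars for the mean of 6 animals. All points lie in the grey band of 35 to 65%, the limits that the rule sets on the group means of each window. Snrpn was lower in C3 and C3B6F1 than in B6 and B6C3F1 by 5.2 and 6.75 points of the means. No window of that locus was called for either difference, and its windows did not all have the same order of the crosses.

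The reciprocal crosses have the same autosomal alleles but from opposite parents. The limits of the members bound the difference between them at 30 points, so the calls are a description. A window was called if the adjusted p of limma was below 0.05 and the means differed by at least 10 points. Of the members 3 were called between B6C3F1 and C3B6F1 (0.0176%), beside 0.0103% of all windows. The largest was at imprinted Mcts2, a gene within H13, at chr2:152512501-152513000 in an exon. There the B6C3F1 animals had 53.3, 56.4 and 63.8% as lowest, median and highest, the C3B6F1 animals had 30.6, 36.0 and 41.4%, and the groups did not overlap. The difference was 21.5 points (limma, adjusted p = 0.000131), with 48.8% in B6 and 50.2% in C3. The window holds 2 variants between the strains, and its depth in C3 relative to B6 was 0.582, whereas the median of that ratio over all windows was 1.02. B6C3F1 animals, whose maternal copy is B6, had the higher level. The part of the uneven coverage in this result was not tested. The adjacent member of the same locus, at chr2:152513001-152513500, had means of 52.1% in B6C3F1 and 52.4% in C3B6F1. The difference between the crosses was thus called in 1 window and not along the locus.

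The Snrpn member printed above showed a difference of 21.7 points between the crosses, with 57.8% in B6C3F1 and 36.1% in C3B6F1, but it was not called (limma, adjusted p = 0.176). Its lowest animal had 115 counts, and its CpGs had the closest levels of any imprinted member. Coverage of this window was uneven, as at Mcts2, with a mean of 324.3 counts per B6 animal but 186.2 per C3 animal. The part of that unevenness in the difference between the crosses was not tested. The lowest, median and highest animals were 45.1, 58.4 and 70.1% in B6C3F1 and 22.9, 36.7 and 51.8% in C3B6F1. In the same locus, the window at chr7:67149001-67149500 had the reverse order, with 49.0% in B6C3F1 and 54.7% in C3B6F1. The window at chr7:67149501-67150000 had 49.8 and 44.7%. Among members, the largest difference with C3B6F1 higher was in Actr3b, with 40.3% in B6C3F1 and 63.0% in C3B6F1 (-22.72 points, limma, adjusted p = 0.507), which was not called either. Among the 31 imprinted loci, 25 had cross means within 5 points of each other. Closeness of the crosses was common, as the median absolute difference over all members was 2.00 points. Outside the lists, Celf2, which encodes an RNA-binding protein, was called at chr2:6642501-6643000 with 49.9, 57.1 and 63.0% in B6C3F1 and 33.5, 38.0 and 48.6% in C3B6F1. The groups did not overlap and differed by 16.7 points (limma, adjusted p = 0.0283, from 0.0131 to 0.11 over the alternatives and single animals left out), so the call was not kept under every alternative.

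Members as uniform as the imprinted ones but near neither list were few. Only 14 had an SD over CpGs of up to 5 points, and 5 of the 14 had Rasgrf1, Zdbf2 or Dlk1, all imprinted genes, as the nearest protein-coding start. Adjacent windows at chr9:89774501-89775000 and chr9:89775001-89775500, 29613 and 29113 bp from the start of Rasgrf1, which encodes a guanine nucleotide exchange factor, had SDs over CpGs of 2.24 and 3.95 points. In the first, the animals had a lowest, median and highest of 43.0, 47.2 and 70.01% in B6, 42.1, 45.5 and 61.5% in C3, 44.9, 50.9 and 63.6% in B6C3F1, and 45.8, 54.2 and 61.9% in C3B6F1. A window at chr12:110766501-110767000, 68448 bp from the start of Dlk1, had 28 CpGs with an SD of 3.43 points and means of 54.9, 54.7, 59.9 and 50.9%. Near Zdbf2 the windows at chr1:63299001-63299500 and chr1:63307501-63308000 had SDs of 4.52 and 4.96 points.

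The remaining 9 had no gene of the lists as their nearest start, and 3 of the 14 varied between animals by an SD of 10 points or more. Bcas3, whose CpGs differed least, had 38.0, 48.9 and 70.7% in B6, 33.5, 63.7 and 74.5% in C3, 40.1, 57.4 and 75.5% in B6C3F1 and 47.6, 59.2 and 67.7% in C3B6F1. These ranges overlapped, and the SD within groups was 11.7 points, beside 3.25 from counting if all counts were independent. Near CpGs share reads and had a mean correlation of 0.827 here, so the true counting error is larger. The part of counting error in this spread was not tested. Likewise, the intergenic window at chr2:52233501-52234000, 39183 bp from the start of the muscle gene Neb, ranged from 23.6 to 78.7% over the animals (SD within groups 12.6 points). In an intron of Actr3b, at chr5:25274501-25275000, B6 animals had 41.6, 58.5 and 76.3%, C3 animals 17.9, 41.2 and 54.9%, B6C3F1 31.1, 38.0 and 58.6%, and C3B6F1 50.2, 61.0 and 78.2%. Of the 50-base stretches, 15.5% occur elsewhere in the genome in that window, 28.4% in the second Rasgrf1 window and 41.2% in the window near C1galt1, and 0 in the other 11. The other uniform windows of this group were near Cisd1, in Aldh3a2, in Nfkbiz, near C1galt1, near Rrm2 and in Hal, and those near Rrm2 and in Hal hold 6 strain variants each. The depth in C3 relative to B6 was 0.742 near Rrm2 and 0.407 in Hal. The Aldh3a2 window was called between dams, with 30.3, 45.5 and 57.66%, and sires, with 57.67, 59.2 and 60.4% (-15.47 points, limma, adjusted p = 0.0318), and between daughters and sons it was not (-9.61 points, limma, adjusted p = 0.552).

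Longer loci outside the lists were led by the clustered protocadherins, cell adhesion genes of which single neurons choose a few promoters. Within 2 kb of these genes, 91 of 279 windows tested were members (32.6%), the largest share of any list counted, and 40 of the 91 were uniform. The 10 longest loci outside the imprinted lists, ranked by windows and then by CpGs, held 4 or 5 windows. Other loci of 4 windows with fewer CpGs were left out. Of the 10, 6 lay in the spans annotated as Pcdha11 and Pcdhgc5. The median SDs over CpGs of these 6 were 16.2 to 22.0 points, compared with 1.37 to 8.35 points in the 19 imprinted loci of 3 or more windows. At the locus of 5 windows in Pcdha11, the B6 animals had 47.5, 53.3 and 56.9%, the C3 animals 48.6, 53.7 and 56.5%, the B6C3F1 animals 50.1, 54.2 and 59.0%, and the C3B6F1 animals 51.5, 55.3 and 60.2%, so the ranges overlapped. These genes have near-identical copies, and 5.93 to 21.2% of the 50-base stretches of the 6 loci occur elsewhere. At the Pcdhgc5 locus of chr18:37891001-37893000 the depth in C3 relative to B6 was 0.314, with means of 44.7% in B6 and 50.9% in C3. A locus of 4 uniform windows at chr4:151499001-151501000 lies in an intron of Espn, which encodes an actin-bundling protein, with means of 56.9, 52.8, 59.5 and 56.7%. The other 3 of the 10 were at Gpr81, near 3425401B19Rik and near Mical3.

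Within 2 kb of hepatocyte genes, 27 of 222 windows were members (12.2%), in 14 genes, beside 5.65% of all windows. Pck1, which encodes the first committed enzyme of gluconeogenesis, had 5 of 11 windows as members at 38.0 to 52.6%. Ass1, an enzyme of the urea cycle, had 5 of 30 at 43.5 to 60.9%, and Hnf4a, a transcription factor of hepatocyte identity, had 3 of 23 at 41.7 to 49.6%. Both windows tested at Cyp2e1, a xenobiotic-oxidizing cytochrome, were uniform members at 56.4 and 60.7%, with a median SD over CpGs of 5.21 points. The single window tested at Cyp7a1, which encodes the rate-limiting enzyme of bile acid synthesis, was a uniform member at 48.8%. Genes of other liver cells had 12 of 262 (4.58%).

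Other families were counted in the same way. Developmental genes including the Hox clusters had 139 of 3123 (4.45%), zinc finger genes of the Zfp series 110 of 2870 (3.83%), olfactory receptors 12 of 240 (5%), clustered histones 5 of 152 (3.29%), germline genes 4 of 126 (3.18%) and genes of the methylation machinery 8 of 275 (2.91%). Near genes reported as metastable epialleles, whose methylation differs between genetically identical animals, 7 of 110 windows were members (6.36%), at Eps8l1, Rab6b, Slc15a2 and the agouti gene a.

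Spread between animals was given by the SD within the 8 groups, each 3 mice of 1 sex of a strain or cross. Its median was 4.22 points over members, and 2.80 points would follow from counting error if all counts were independent, so that the median ratio was 1.49. At genes with an imprinted region the median SD was 5.56 points and the ratio 2.48. Over all windows the values were 2.02 points and 1.20. The counts of neighbouring CpGs come in part from the same reads, which widens the true counting error where neighbours are alike, so the ratios are not tests.

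Co-variation measures whether CpGs up to 50 bp apart deviated from their group means in the same animals. The mean correlation over the 24 animals had a median of 0.655 in members at genes with an imprinted region, 0.264 in members near neither list and 0.113 in all windows. For pairs 51 to 200 bp apart the medians were 0.206, 0.0837 and 0.0289. In uniform imprinted members it reached 0.704 for the near pairs, and in uniform members near neither list 0.31. It is a description, because near CpGs share reads and depth.

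**Figure D4:**
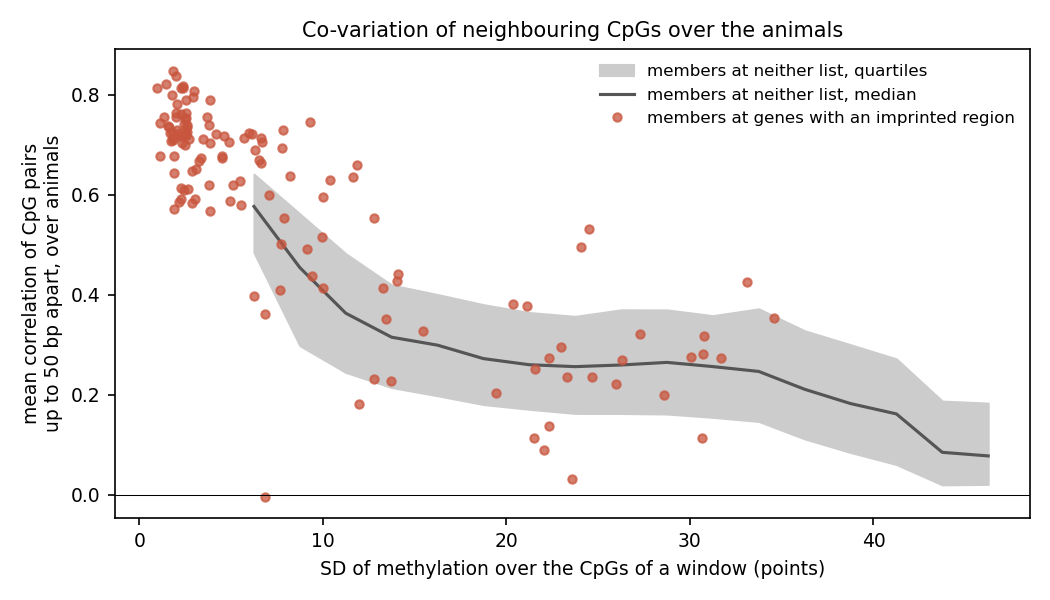
Mean correlation over the 24 animals of CpG pairs up to 50 bp apart in the same window, against the SD over CpGs (points). Red points are members at genes with an imprinted region, and the grey line and band are the median and quartiles of members near neither list in bins of 2.5 points with 20 or more windows. Values are highest where the CpGs of a window are most alike, in either set.

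The widest spread of all members was in an exon of Myo3a, which encodes an unconventional myosin, at chr2:22444501-22445000. Its animals had a lowest, median and highest of 29.4, 44.3 and 63.6% in B6, 18.6, 43.4 and 54.6% in C3, 16.9, 35.9 and 59.5% in B6C3F1 and 15.2, 39.2 and 64.6% in C3B6F1. The SD within groups was 15.1 points, compared with 1.81 from counting if all counts were independent. The near CpGs had a mean correlation of 0.909 and share reads, so the true counting error is larger. The window at the start of Art3, an ADP-ribosyltransferase gene, at chr5:92821501-92822000 ranged from 30.4 to 72.0% with an SD of 12.7 points over 26 CpGs. A window near Kbtbd8 had an SD of 13.8 points, but all of its 50-base stretches occur elsewhere in the genome and its lowest animal had 53 counts. A window near Birc3 had an SD of 13.01 points, where counting of independent counts gives 4.67, and 54 counts in its lowest animal.

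The members were chosen on averages over both sexes. A middle average leaves room for differences in either direction, and a large difference can only average to the middle, whereas the median level of all windows was 85.6%, so the shares of all windows are background and no measure of enrichment. Of the members, 454 were called between dams and sires (2.66%), beside 0.445% of all windows, and 81 of them differed by 20 points or more, as 0.0688% of all windows did. In 245 the dams were higher and in 209 the sires, beside 0.237 and 0.209% of all windows. Between F1 daughters and F1 sons 173 were called (1.01%), beside 0.182% of all windows, with 129 higher in daughters and 44 lower (0.144 and 0.0387% of all windows). Called in both generations were 88 members higher in females and 35 lower, beside 0.104 and 0.0288% of all windows, and 0 changed direction. The 245 members higher in dams had a median difference of 13.7 points in the parents and 8.98 points in the F1 animals, 233 of them in the same direction. The 209 lower in dams had -14.5 and -4.81 points, 180 in the same direction.

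Dock1 had the largest difference in favour of females. The 6 dams had 86.2, 89.8 and 92.5% as lowest, median and highest and the 6 sires had 17.5, 27.1 and 32.3%. The groups were 62.9 points apart (limma, adjusted p = 5.02e-15). The F1 daughters had 82.7, 90.4 and 92.7% and the sons had 28.1, 33.0 and 36.1%, a difference of 56.1 points (limma, adjusted p = 1.16e-13). No female overlapped a male in either generation. At each of its 11 CpGs the pooled level was higher in females than in males.

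Dkk4, which encodes a secreted inhibitor of Wnt signalling, held a member in an exon at chr8:23737501-23738000. Dams had 73.0, 78.2 and 79.9% and sires 14.3, 20.9 and 37.5%, with a difference of 54.3 points (limma, adjusted p = 1.42e-11). Daughters had 65.3, 69.5 and 76.5% and sons 13.9, 30.2 and 41.8%, so these groups did not overlap either. An exon of the noncoding gene 4930556M19Rik, 4115 bp from the start of Rai14, at chr15:10648501-10649000, had 69.9, 78.1 and 83.3% in dams and 16.3, 23.9 and 44.0% in sires (difference 51.2 points, limma, adjusted p = 2.37e-14). In the F1 animals the difference was 54.9 points.

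In favour of males, the 3 members with the largest differences were these. The window at chr5:33800001-33800500, 23376 bp from the start of the homeobox gene Nkx1-1, had 13.2, 18.3 and 21.1% in dams and 74.0, 78.8 and 81.6% in sires, a difference of -60.8 points (limma, adjusted p = 2.92e-18). Its F1 daughters had 15.8, 26.6 and 47.2% and its sons 67.9, 74.5 and 83.8%. Among the daughters, B6C3F1 had 15.8 to 18.6% and C3B6F1 34.7 to 47.2%, a difference that was not tested in daughters alone. The window 3098 bp from the start of 2610002J02Rik, at chr4:154620501-154621000, had a difference of -44.9 points in the parents and -34.6 points in the F1 animals (limma, adjusted p = 1.19e-11 and 4.82e-08). In an intron of Abp1, which encodes a copper amine oxidase, at chr6:48852001-48852500, the differences were -43.9 and -33.9 points (limma, adjusted p = 1.67e-14 and 9.23e-11). No female overlapped a male within a generation in these 6 windows, which was a condition for naming them. Among called members without overlap, the same 6 windows had the largest differences in the parents and in the F1 animals.

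**Figure D5:**
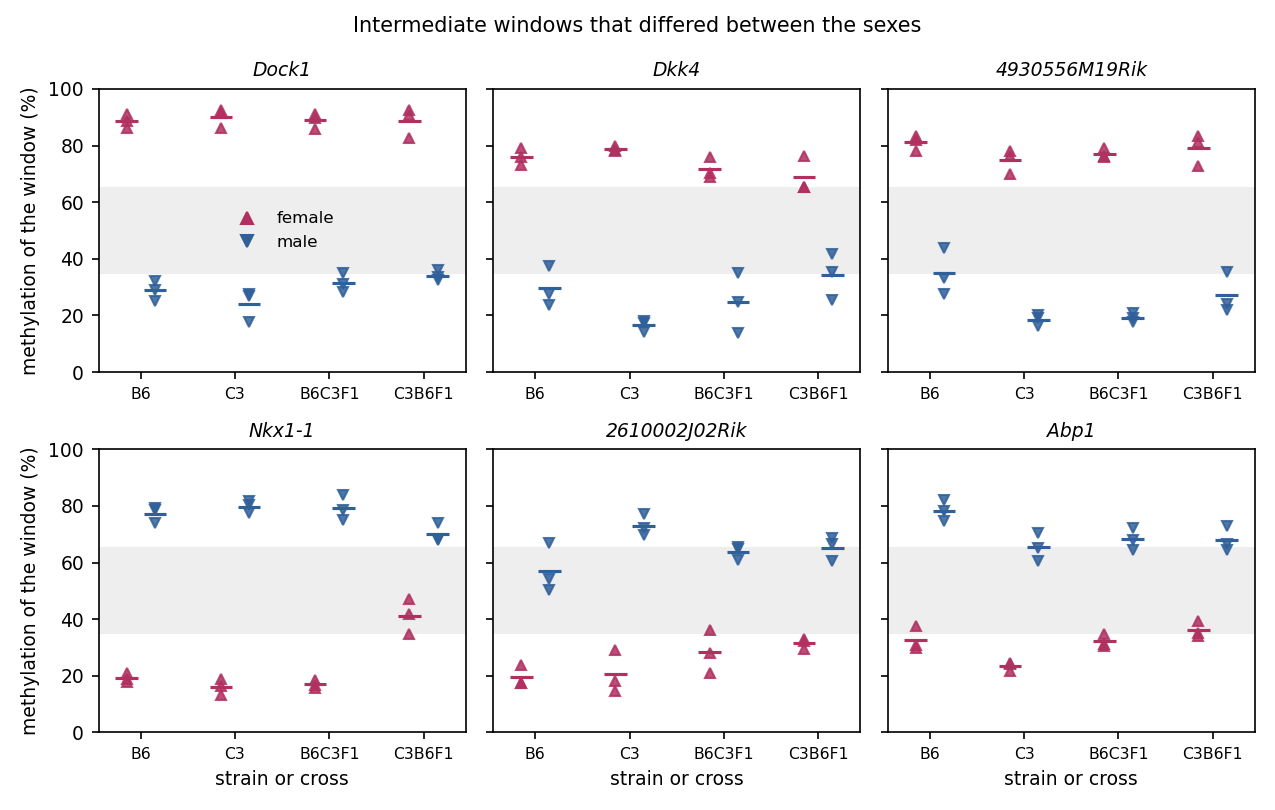
Methylation (%) of 6 members in each animal, by strain or cross, for females (red, upward) and males (blue, downward), with bars for the mean of 3 animals. In the upper row females are above 65% and males mostly below 40%, and in the lower row the order is reversed, with the C3B6F1 daughters at Nkx1-1 at 34.7 to 47.2%, in or at the edge of the grey band of 35 to 65%.

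These windows entered by averaging. In 4 members every female group was above 65% and every male group below 35%, and in 0 members was it the reverse. The 4 were Dock1, Dkk4, 4930556M19Rik and a window near Exph5 at chr9:53129501-53130000. Such windows were not counted over all windows, so these counts have no background and show no preferred direction. They also turn on fixed limits. The window at chr5:33800001-33800500 missed the reverse pattern only through its C3B6F1 daughters, with a mean of 41.25%. Means of all 8 groups lay between 35 and 65% in 13768 members (80.6%), and every single animal did in 7000 (41.0%). At genes with an imprinted region every animal did in 61 of 143 (42.7%), and near neither list in 41.0%. None of the 31 imprinted loci held a window called between the sexes, and the lowest adjusted p of limma in them was 0.174. These loci hold 123 windows, and over all windows 0.445% were called between dams and sires and 0.182% between daughters and sons. At these shares the absence of calls in so few windows is near the background. A single window in the Slc38a4 region, at chr15:96833501-96834000, was graded and was called with dams 18.9 points above sires (limma, adjusted p = 0.000333) and 14.7 points above daughters (limma, adjusted p = 0.0194). Slc38a4 encodes an amino acid transporter of hepatocytes.

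Dams were next compared with virgin daughters, which differ in parity and also in being inbred or F1. The limits of the members also restrict this comparison. Called were 110 members (0.644%), beside 0.141% of all windows, with dams higher in 29 and lower in 81 (0.0288 and 0.113% of all windows). Between sires and F1 sons, 2 members were called (0.0117%), beside 0.0225% of all windows. In an intron of Smad7, an inhibitor of TGF-beta signalling, dams had 58.9, 64.1 and 78.6%, daughters had 40.4, 45.4 and 48.2% and sires had 45.0, 47.2 and 50.6%. The dams stood apart from both (21.7 points above daughters, limma, adjusted p = 4.49e-05).

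An exonic window shared by Ralgps1 and Angptl2, the latter a secreted angiopoietin-like protein, at chr2:33084001-33084500, had 24.1, 31.8 and 37.8% in dams. Daughters had 53.4, 58.3 and 69.3% and sires 65.0, 66.7 and 71.5%, with dams 27.8 points below daughters (limma, adjusted p = 3.92e-07). Dams were thus below both of these groups without overlap. Near Cdyl, at chr13:35595001-35595500, dams were 24.8 points below daughters (limma, adjusted p = 1.37e-05), and in Cdk2ap1, at chr5:124801001-124801500 and 163 bp from its start, 20.5 points below (limma, adjusted p = 3.26e-06). Higher in dams were also an intron of Amy1, a salivary and hepatic amylase gene, by 16.99 points (limma, adjusted p = 0.0156, from 0.00262 to 0.0684 over the alternatives), and an exon of the lipid receptor gene S1pr5 by 16.6 points (limma, adjusted p = 0.0113, from 0.0044 to 0.0514). In males, an intron of Aacs, an acetoacetyl-CoA synthetase, had 40.7, 48.1 and 53.1% in sires and 32.1, 33.7 and 37.3% in F1 sons (13.2 points, limma, adjusted p = 0.0196, from 0.0104 to 0.0988). The groups compared did not overlap in any of these windows, which was a condition for naming them.

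A test of whether the sex difference itself differed between parents and F1 animals was called for 23 members, counting adjusted p below 0.05 with no limit on size, and for 129 of all windows (0.0427%). Dams against sires and dams against daughters share the dams, so both are given side by side and neither is evidence for the other.

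B6 and C3 differed in 1500 members (8.79%), beside 2.71% of all windows, although the limits cap this difference at 30 points, with C3 higher in 935 and B6 in 565 (1.56 and 1.15% of all windows). The widest were close to that cap. In an exon of AW555464, at chr12:113981501-113982000, B6 animals had 61.0, 62.0 and 68.9% and C3 animals 27.7, 35.6 and 46.0%, while B6C3F1 and C3B6F1 had means of 48.1 and 48.7%. In an exon of Ccdc61, at chr7:19478501-19479000, B6 animals had 30.8, 36.0 and 40.9% and C3 animals 57.1, 65.3 and 69.5%, with F1 means of 45.6 and 49.8%. The limits hold the F1 means between 35 and 65%, so parents near both limits leave them in between. Fam13c and Sgms1 had B6 higher by 27.3 and 27.0 points, and Ttc34 and Mical3 had C3 higher, with B6 less C3 at -27.95 and -27.8 points. All 6 windows hold 1 to 5 variants between the strains.

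A protein-coding start lay within 1 kb of 14.8% of members and of 16.6% of all windows. Exons were met by 23.9% of members and 31.7% of all windows. The members at genes with an imprinted region were picked for lying near genes, and 46.2% of them had a start within 1 kb and 49.7% met an exon. The median member held 12 CpGs, as did the median window, and the median imprinted member held 19. Strain variants were in 19.7% of members, 20.0% of all windows and 10.5% of imprinted members. Windows with at least 50% of their 50-base stretches found elsewhere made up 1.17% of members and 7.27% of all windows.

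At the limits, the members just inside were introns of Cfc1, Grik3 and Dcbld1, with a highest group mean of 65.0%, and the windows just outside were near Sox14, in Rbfox3 and in 8430437L04Rik, also at 65.0% when rounded. The median level over members was 51.2% in B6 mice, 52.2% in C3 mice, 52.1% in B6C3F1 and 51.6% in C3B6F1, and that of single animals ranged from 50.7 to 52.8%.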

How the data were processed

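Whole-genome bisulfite sequencing data of liver from 24 mice, 3 in each of 8 groups of strain or cross and sex, were used. The authors deposited counts of methylated and unmethylated reads per CpG of mm9 in each animal, after alignment with Bismark 0.7.8 over Bowtie 0.12.8 and removal of duplicates by Bismark's own tool; the submitters' processing notes also name CASAVA 1.8.2. All 48 columns of counts were used and 0 were left out, and FOXA1 ChIP-seq libraries of the series were not analysed here. Bisulfite cannot tell 5-methylcytosine from 5-hydroxymethylcytosine, and a C-to-T variant at a CpG reads as unmethylated. The counts cover 18887127 autosomal CpGs, the number that the paper gives for the sites it kept. The authors kept sites that were CpGs in mm9 and in their own B6 and C3 genomes. They also checked these sites in the bisulfite reads of both strains.

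Counts of both strands were summed over fixed 500-bp windows of the autosomes. Of 308689 windows with 10 or more CpGs, 302148 had at least 50 counts in every animal. Autosomal counts per animal were 365740739 to 619888157, or 19.4 to 32.8 per CpG, which gave a median counting SD of 2.80 points for a member in 1 animal. The counts of neighbouring CpGs share reads, so this covers counting error only and is a lower limit.

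Tests used limma 3.58.1 (R 4.3.3) on log2((methylated + 1) / (unmethylated + 1)), 8 group means, trended and robust variances and Benjamini-Hochberg adjustment over all windows. A call needed adjusted p below 0.05 and 10 points of difference in mean percent methylation. The replicates are separate animals, and the F1 animals are offspring of the parents tested. On simulated counts of 37074 windows for dams against sires, the test called 45 of 100 windows given a shift of 10 points, 99 of 100 given 20 points, and 0 others.

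CpG levels used pooled counts of at least 100, and co-variation used CpGs with at least 10 counts in every animal. Genes came from GENCODE vM1, strain variants from the authors' list of single-nucleotide variants, and copies from exact 50-base matches in the genome, since its repeats were not marked.

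Members and gene lists were chosen with earlier results of these data known. Named are the loci of 2 or more members at imprinted genes, the 10 longest loci and 10 most uniform members outside the lists, the 3 called members per direction and test with the largest difference and no overlap, and 3 windows on either side of the limits. Windows with the widest spread, the printed sequences, the limit of 5 points on the SD over CpGs, the flanks, the steps and the single genes named from the other lists were added after values were seen. Alternatives were other limits, CpG and count minimums, a shift of the windows, summed counts, another pseudocount, arcsine values, a larger difference, a replicate block and leaving out each animal.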

Additional observations from a re-analysis of the deposited data

Results flagged for a closer look

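In 304 sets of 6 animals, over the named loci and windows other than those at the limits, the highest or lowest animal was set against the others with Dixon's test at its 95% limit. A set was a strain or cross, or the dams, sires, daughters or sons for the 13 windows named for a difference between sexes or generations. A single animal stood apart in 21 sets (6.91%), and chance gives about 1 in 20. Male 1 of B6C3F1 had 61.1% at the Zdbf2 locus of chr1:63313001, while the others had 44.5 to 49.2%. Male 3 of B6C3F1 had 49.2% at the H13 locus of chr2:152533001 (others 41.7 to 43.9%), 58.6% at Impact (others 43.8 to 46.3%) and 58.6% in Actr3b (others 31.1 to 41.3%). Male 2 of B6C3F1 had 84.7% at Cdh15, where the others had 54.7 to 63.2%. Female 1 of B6C3F1 had 47.2% at Peg10 and Sgce (others 50.3 to 52.1%). Male 2 of B6 had 56.3% at Zrsr1 and Commd1 (others 50.8 to 52.6%). At the Slc38a4 locus of chr15:96884501 female 1 of C3 had 57.6% (others 42.5 to 47.8%). At the Slc38a4 locus of chr15:96890001 female 1 of B6 had 55.5% (others 51.2 to 52.8%) and male 3 of C3B6F1 had 61.5% (others 54.0 to 56.3%). Female 1 of C3B6F1 had 35.7% at Airn and Igf2r (others 46.5 to 52.0%). Female 3 of B6 had 70.01% in the window near Rasgrf1 at chr9:89774501 (others 43.0 to 51.01%). At the longer loci, male 3 of C3B6F1 had 60.0% at Pcdhgc5 (others 48.0 to 51.7%) and male 1 of C3B6F1 had 57.5% at Gpr81 (others 51.6 to 53.4%). Male 2 of C3 had 59.2% at Mcts2 (others 45.7 to 50.7%) and 72.9% near Ttc34 (others 60.2 to 64.4%). Male 3 of C3B6F1 had 18.8% near Birc3 (others 36.6 to 44.2%). Among the F1 sons, male 1 of C3B6F1 had 35.4% in 4930556M19Rik (others 17.7 to 24.2%), male 3 of B6C3F1 had 26.9% in Amy1 (others 37.0 to 42.9%) and male 3 of C3B6F1 had 71.5% near Cdyl (others 54.6 to 60.6%). Among the daughters, female 3 of C3B6F1 had 69.3% at Ralgps1 and Angptl2 (others 53.4 to 59.4%).

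The difference between the sexes itself differed between parents and F1 animals in 23 members (limma, adjusted p below 0.05). Among the named windows, females minus males in the parents less the same in the F1 animals was -15.4 points near Nkx1-1 (limma, adjusted p = 0.0376), 22.8 points in Smad7 (limma, adjusted p = 0.0137), -28.02 points at Ralgps1 and Angptl2 (limma, adjusted p = 0.00105) and -19.5 points in Cdk2ap1 (limma, adjusted p = 0.0072). Near Nkx1-1 the B6C3F1 daughters had 15.8 to 18.6% and the C3B6F1 daughters 34.7 to 47.2%, beside 13.2 to 21.1% in dams. Parents and F1 females differ in parity and in genotype, which cannot be told apart here.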

How the results depend on the processing

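The number of members followed the rule. It was 9371 (2360 uniform) at limits of 40 to 60%, 26388 at 30 to 70%, 81645 with 5 or more CpGs (428 at imprinted genes, 21855 uniform, SD between animals 4.42), 883 with 20 or more CpGs (66 at imprinted genes, 353 uniform, SD 4.92) and 8196 with at least 200 counts in every animal (1871 uniform, SD 4.00). With CpGs required to lie between 30 and 70%, 1657 members were uniform. Windows moved by 250 bp gave 16875 members and 176 at imprinted genes.

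Called members, in the order dams against sires, daughters against sons, dams against daughters, sires against sons, reciprocal crosses and strains, fell to 81, 39, 4, 0, 1 and 102 at 20 points or more. With 200 counts, where only 8196 members remained, they were 192, 89, 50 and 567 for the first 3 and the strains. Without the minimum difference 2669 were called between strains. Leaving out each animal gave 392 to 461, 134 to 183, 79 to 112, 0 to 2, 1 to 3 and 1469 to 1582. Named windows kept their side of the threshold and direction under 769 combinations of window and alternative, and in 25, all at Amy1, S1pr5, Aacs and Celf2, the call was lost. Animals with the same number did not deviate together (median r 0.0099, from -0.044 to 0.098), and the numbers were not taken as pairs. Members of a family need not deviate together, so these values cannot show whether a number marks a family. A replicate block gave 458, 178, 106, 2 and 3 calls, and 1507 for B6 against C3. Differences under 10 points were left out of the calls by rule. Shares over all windows are not given for these alternatives, apart from 0.0688% for dams against sires at 20 points. The counts therefore show only how the calls moved with the processing.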

Other observations

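Members near imprinted genes that were called between the strains were at Ano1 (11.0 points higher in C3), Mirg (10.2 points) and Htr2a (16.5 points), beside 3 windows of Slc38a4, of which 2 were higher in C3 and 1 in B6. The Htr2a window, at chr14:75041501-75042000, had means of 35.4% in B6 mice, 51.9% in C3 mice, 42.6% in B6C3F1 and 37.3% in C3B6F1 (limma, adjusted p = 3.9e-05). Htr2a encodes a serotonin receptor. None of the 10 loci outside the lists that ranked longest by windows and then CpGs held a window called between the sexes or between the crosses. These loci hold 41 windows. Over all windows 0.445% were called between dams and sires, 0.182% between daughters and sons and 0.0103% between the crosses, so this absence is near the background. At Gpr81, a lactate receptor gene, 2 windows were called between B6 and C3 (means of the locus 55.7 and 48.2%, lowest adjusted p of limma 4.24e-05).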
